A study of Mus musculus with 5 samples.

Results

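The genes described here are 8 enzymes that inactivate, interconvert or conjugate steroid hormones: Akr1c18, Akr1c14, Srd5a1, Hsd11b1, Hsd17b4, Hsd17b11, Sult1e1 and Cyp1b1. They were chosen by name from the 31053 genes that the files list, and all 8 were found. Each was followed through single-cell RNA sequencing of untreated C57BL6/J mouse ovaries at 2, 3, 4, 5 and 6 wk of age. Ovaries were dissociated with trypsin, live cells were sorted, and 1 library with 10x Genomics 3′ chemistry was made per age, so no age has a replicate. The sources used here do not give the number of animals behind a library.

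Progesterone, androgens and estrogens are made in the ovary from cholesterol and are removed by reduction, oxidation, hydroxylation and conjugation. Akr1c18 encodes 20α-hydroxysteroid dehydrogenase, which turns progesterone into a form with little receptor activity and is best known from the regressing corpus luteum. Srd5a1 encodes the type 1 5α-reductase, which reduces testosterone and progesterone, and Akr1c14 encodes a 3α-hydroxysteroid dehydrogenase that reduces the 5α-reduced steroids further. Hsd17b4 and Hsd17b11 oxidise the 17β-hydroxyl group, the former in the peroxisome, where it also takes part in fatty acid β-oxidation, and the latter on lipid droplets and the endoplasmic reticulum. Cyp1b1 hydroxylates estradiol and is induced by the aryl hydrocarbon receptor, and Sult1e1 attaches sulfate to estrogens. Hsd11b1 acts on glucocorticoids, regenerating the active hormone from its oxidised form.

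The 5 libraries held 7779 to 11077 cells, 48163 in all, with medians of 9056 to 12424 unique molecular identifiers (UMIs, each marking 1 captured RNA molecule) per cell. Cells were clustered with the 8 genes left out of the variable genes, and clusters were named from other marker genes. A name ends in "-like" because it rests on markers alone. Named clusters held 18040 granulosa-like, 13820 stromal-like, 4110 smooth muscle-like, 1439 theca-like, 858 pericyte-like, 714 blood endothelial-like, 496 hematopoietic-like, 321 surface epithelial-like, 232 lymphatic endothelial-like and 92 rete ovarii-like cells, and 8041 cells stayed unnamed. To give a level, the UMIs of a gene were added up over a class and expressed per 1000000 UMIs of the same cells (CPM), with the 95% Poisson interval in parentheses. These intervals, and those of ratios and shares, cover counting error only and not the difference between mice. Those on UMIs take each UMI as independent, so UMIs that gather in few cells make them too narrow. Cell Ranger 3.1.0 had made the 2, 3 and 4 wk tables and Cell Ranger 6.0.1 the 5 and 6 wk tables, so from 4 to 5 wk the software and the age cannot be told apart. Of all cell barcodes, 18 to 35 were shared by any 2 libraries.

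Pooled over the 5 libraries, the 8 genes differed in how far 1 cell class led. Akr1c18 was highest in granulosa-like cells and Srd5a1 in theca-like cells. Akr1c14 was highest in granulosa-like and next in smooth muscle-like cells, and Cyp1b1 was highest in smooth muscle-like cells. Hsd11b1 was highest in hematopoietic-like cells, although the far more numerous stromal-like cells held 220 of its 307 UMIs. Sult1e1 was listed at 0 in 6 of the 9 classes with at least 200 cells. Hsd17b4 and Hsd17b11 were at more even levels, from 43.9 to 76.8 and from 37.3 to 70.6 CPM over these 9 classes. Akr1c14, Srd5a1 and Cyp1b1 were also detected in all 9. The highest class was at least 2-fold over the class that came next in the pooled order in each of the 5 libraries for 1 of 8 genes, Akr1c18, where 8.58% of all 18202 genes with enough UMIs passed the same rule. The next class of Akr1c18 held 1 UMI in all, so in 4 libraries that comparison was with a count of 0 and is no measure of the difference. In single libraries other classes could stand higher, as theca-like cells did at 4 wk (0.809 CPM from 3 UMIs, against 0.299 in granulosa-like cells) and smooth muscle-like cells at 5 wk (0.496 from 4 UMIs, against 0.359). The number of genes passing the rule was 0 without cells called doublets and 2 with a stricter filter on cells (1000 or more genes and under 10% mitochondrial UMIs).

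**Figure D1:**
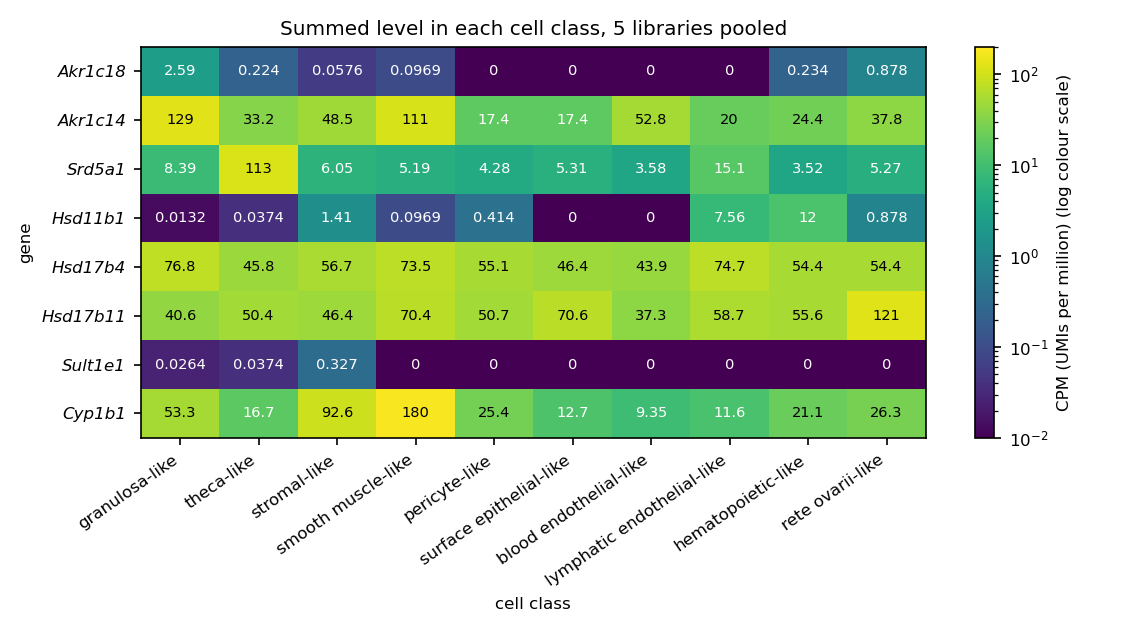
Level of each gene (rows) in each cell class (columns) in CPM, summed over the 5 libraries, with a logarithmic colour scale and the value printed in each cell. Srd5a1 stands out in theca-like cells at 113, Cyp1b1 in smooth muscle-like cells at 180, and Hsd17b4 and Hsd17b11 are spread over every class.

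The positions of 7 of the genes are given on GRCm38 (GENCODE vM21). Akr1c14 (chr13:4049011-4090688, plus strand) and Akr1c18 (chr13:4132615-4150654, minus strand) are neighbours, with 41926 bases and 2 non-coding genes between them. Srd5a1 lies far off on the same chromosome (chr13:69573449-69611442, minus strand), where it overlaps Nsun2 on the other strand. Hsd11b1 is on chromosome 1 (chr1:193221634-193264075, minus strand), where it overlaps Lamb3 on the other strand. Hsd17b11 (chr5:103989762-104021919) and Sult1e1 (chr5:87575969-87591594) share chromosome 5, both on the minus strand. Cyp1b1 is on chromosome 17 (chr17:79701537-79715061, minus strand). Because the AKR1C enzymes are a family of close paralogs, the last 500 bases of every annotated transcript, from which a 3′ library is read, were compared between genes. In none of the 8 genes did a 50-base window of this stretch occur in a transcript of another gene.

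Sequences before the transcription start are shown for the neighbours Akr1c18 and Akr1c14, for Srd5a1, which acts before Akr1c14, and for Cyp1b1, a known target of the aryl hydrocarbon receptor. They are the 250 bases upstream of the RefSeq start (GRCm38.p6), read 5′ to 3′ on the strand of the gene. For Akr1c14, and for Hsd11b1 below, this stretch lies within the gene span given above, downstream of the outermost annotated start. Akr1c18 (chr13:4150647-4150896, minus strand), Akr1c14 (chr13:4059341-4059590, plus strand) and Srd5a1 (chr13:69611464-69611713, minus strand) carry capitals at each GC box (GGGCGG on either strand), and Cyp1b1 (chr17:79715062-79715311, minus strand) at the aryl hydrocarbon receptor core (GCGTG on either strand).
Akr1c18: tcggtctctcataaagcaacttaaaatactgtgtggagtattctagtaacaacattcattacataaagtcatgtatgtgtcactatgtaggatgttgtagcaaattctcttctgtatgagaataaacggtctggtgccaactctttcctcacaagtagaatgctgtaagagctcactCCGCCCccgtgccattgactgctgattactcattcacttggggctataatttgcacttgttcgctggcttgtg
Akr1c14: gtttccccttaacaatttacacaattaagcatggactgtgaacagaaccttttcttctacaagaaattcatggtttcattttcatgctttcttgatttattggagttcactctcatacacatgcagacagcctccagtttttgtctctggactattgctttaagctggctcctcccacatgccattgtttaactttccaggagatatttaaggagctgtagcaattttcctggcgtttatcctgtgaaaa
Srd5a1: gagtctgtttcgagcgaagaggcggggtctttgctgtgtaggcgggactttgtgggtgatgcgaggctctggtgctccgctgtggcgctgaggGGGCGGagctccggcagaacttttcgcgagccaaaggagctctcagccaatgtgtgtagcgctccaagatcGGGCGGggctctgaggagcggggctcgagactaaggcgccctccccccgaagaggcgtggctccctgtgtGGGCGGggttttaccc
Cyp1b1: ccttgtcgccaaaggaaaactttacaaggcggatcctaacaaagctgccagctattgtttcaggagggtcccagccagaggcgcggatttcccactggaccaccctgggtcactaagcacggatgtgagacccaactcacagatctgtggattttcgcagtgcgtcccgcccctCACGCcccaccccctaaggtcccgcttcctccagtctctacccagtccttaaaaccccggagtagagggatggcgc

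The Srd5a1 sequence was GC-rich (64.8% G or C, 20 CpG dinucleotides) and held 3 GC boxes, 157, 86 and 16 bases before the start. The sequences of Akr1c18 (41.6%, 5 CpG) and Akr1c14 (38.8%, 1 CpG) were poorer in G and C than the median of 32851 RefSeq promoters (52.4%, 6 CpG). Akr1c18 had 1 GC box 73 bases before the start and Akr1c14 had none. A GC box was present in 32.7% of all promoters of this length. Cyp1b1 (58% G or C, 12 CpG) held 1 receptor core 76 bases before the start, which 28.2% of all promoters also hold, and 1 GC box at 84 bases. The same core occurred in Srd5a1 (32 bases before the start, left in lower case above), Hsd11b1 (111 bases) and Hsd17b11 (249 bases), so 4 of the 7 sequences held it. Among the other members with a promoter entry, the half-site of NR5A receptors (AAGGTCA on either strand, in 4.08% of all promoters) occurred in Sult1e1, 113 bases before the start, and in no other of the 7 sequences. None of the 7 held the TATA box letters TATAAA, which 12.4% of all promoters hold on either strand. These matches describe letters and not binding.

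Between 2 and 5 wk, the ages on either side of the onset of puberty that the study contrasts, 4 of the 8 genes differed by more than 2-fold in at least 1 of 4 classes. The share of all genes that did so in at least 1 class is not given, so this count has no background. Shares for single classes follow. The rule asked for at least 30 UMIs over both ages, and no test was run because each age is a single library. In granulosa-like cells, 6 genes had enough UMIs. Of these, Srd5a1 and Cyp1b1 were past 2-fold up and Akr1c18 down, where 15.6% of 14498 genes were past 2-fold either way. From 2 to 4 wk, within 1 Cell Ranger version, neither Srd5a1 nor Cyp1b1 was past 2-fold in granulosa-like cells. In theca-like cells, 5 genes had enough UMIs, of which Srd5a1 was up and Akr1c14 down, against 19.0% of 11266 genes. In stromal-like cells none of 7 genes was past 2-fold (9.12% of 13860 genes), and in smooth muscle-like cells none of 5 (8.34% of 11541 genes). The median ratio over all genes was 0.971, 0.95, 0.953 and 0.918 in the classes in this order.

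**Figure D2:**
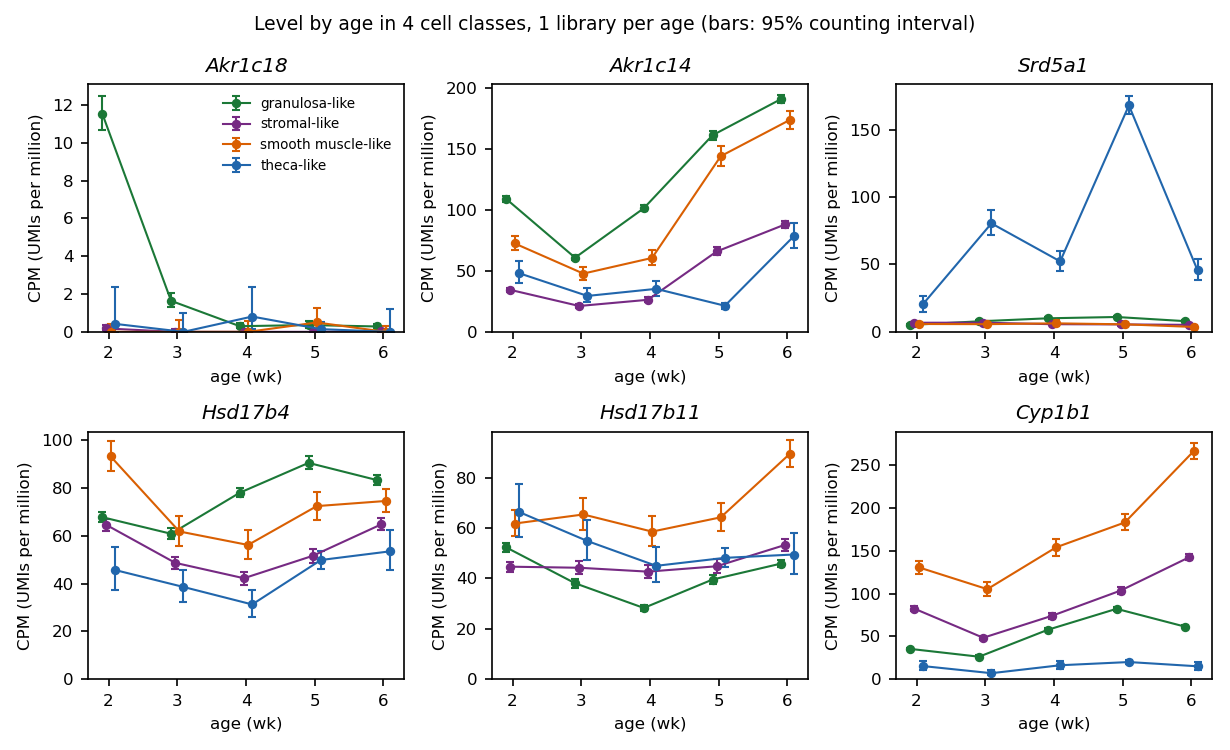
Level in CPM (vertical axes, from 0) against age in wk (horizontal axes) for 6 genes in 4 classes (theca-like, granulosa-like, smooth muscle-like and stromal-like), 1 library per point, with 95% counting intervals as bars. Akr1c18 was near 0 in granulosa-like cells from 4 wk on, Srd5a1 peaked in theca-like cells at 5 wk, and Cyp1b1 was higher at 5 and 6 wk than at 3 wk in all 4 classes and Akr1c14 in all but theca-like cells.

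Akr1c18 was a gene of granulosa-like cells of the youngest ovary. Its 854 UMIs fell as 695, 81, 27, 23 and 28 in the libraries at 2, 3, 4, 5 and 6 wk, and 784 of them (91.8%; 89.8 to 93.6) were in granulosa-like cells, which held 51.5% of all UMIs. The granulosa-like level was 11.5 (10.7 to 12.5) at 2 wk, 1.64 (1.30 to 2.04) at 3 wk, 0.299 (0.187 to 0.452) at 4 wk, 0.359 (0.209 to 0.576) at 5 wk and 0.284 (0.178 to 0.429) at 6 wk. The 2 wk library thus stood apart and the intervals of the last 3 libraries overlapped. The 5 over 2 wk ratio was 0.0312 (0.0180 to 0.0503), and the 4 over 2 wk ratio, within 1 Cell Ranger version, 0.0259 (0.0161 to 0.0395).

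Most cells with an Akr1c18 UMI had a single one, and a few had very many. Over all classes 335 cells carried a UMI, and 249 of them had 1. In contrast, 18 cells with 8 or more UMIs held 403 UMIs, which is 47.2% of the total, and 1 cell held 67. Of these 18 cells 15 came from the 2 wk library and 3 from the 3 wk library, and 17 were granulosa-like. They were spread over 11 of the 16 granulosa clusters, 6 of the 2 wk cells being primary-like, and Scrublet called none of them a doublet. At 2 wk 225 of 3094 granulosa-like cells (7.27%) had a UMI, against 5 of 3404 stromal-like cells (0.147%) and 1 of 51 hematopoietic-like cells (1.96%). Without the cells that hold at least 8 UMIs, an alternative chosen after seeing the data, the 5 over 2 wk ratio in granulosa-like cells was 0.0657 (0.0378 to 0.107).

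**Figure D3:**
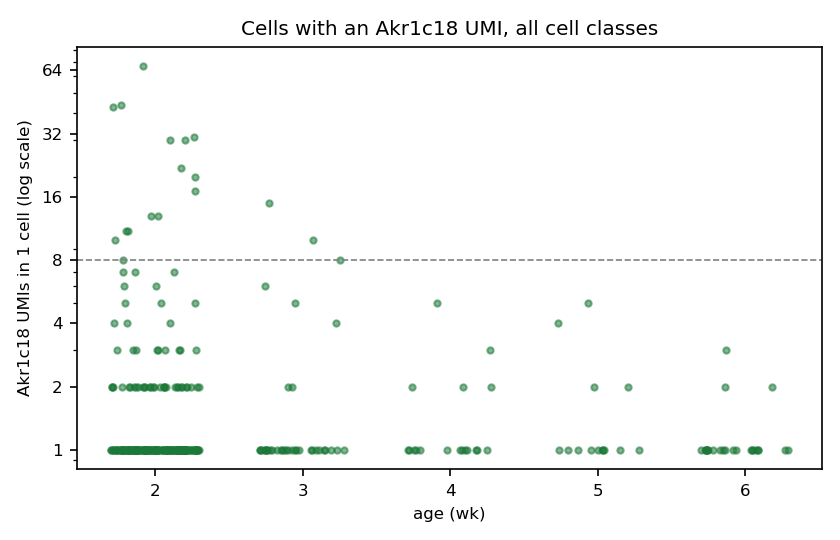
Akr1c18 UMIs in single cells (vertical axis, logarithmic) against age in wk (horizontal axis), 1 point per cell with at least 1 UMI, all classes, spread sideways at random. The dashed line marks 8 UMIs: 15 cells of the 2 wk and 3 of the 3 wk library reached it, and no cell at 4, 5 or 6 wk held more than 5.

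Akr1c14 was detected far more widely, with the granulosa-like level above the smooth muscle-like level in each of the 5 libraries. In granulosa-like cells it measured 109, 60.9, 102, 162 and 191 CPM at 2, 3, 4, 5 and 6 wk (125 ± 51.6, SD over 5 libraries). In smooth muscle-like cells the values were 72.7, 47.9, 60.7, 144 and 174 (99.9 ± 55.8), and in stromal-like cells 34.4, 21.2, 26.3, 66.0 and 88.3 (47.3 ± 28.8). Each of the 3 classes was lowest at 3 wk and highest at 6 wk. Blood endothelial-like cells (52.8 pooled) and stromal-like cells (48.5) could not be ordered, since the former were higher in 3 of 5 libraries. Theca-like cells differed in their course, with 48.3, 29.5, 35.3, 21.4 and 78.4, lowest at 5 wk where the other 3 classes were not. The 5 over 2 wk ratio was 1.48 (1.43 to 1.53) in granulosa-like, 1.92 (1.79 to 2.06) in stromal-like, 1.99 (1.80 to 2.19) in smooth muscle-like and 0.444 (0.357 to 0.556) in theca-like cells. The theca-like ratio was no longer past 2-fold with the stricter filter on cells (0.570) or without integration (0.608). The makeup of the class moved as well, since cells with a UMI each of Cyp11a1, Hsd3b1 and Cyp17a1, genes of androgen synthesis, were 57 of 136 theca-like cells at 2 wk and 578 of 626 at 5 wk. Akr1c14 measured 37.4 at 2 wk and 20.8 at 5 wk in these cells and 58.1 and 32.1 in the other theca-like cells, neither pair past 2-fold. Within 1 Cell Ranger version, the theca-like 6 over 5 wk ratio was 3.66 (3.07 to 4.35).

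Among granulosa-like cells, which were clustered a second time, Akr1c14 was higher in remodeling-like cells (markers Cald1, Itih5, Ghr and Clu among others) than in primary-like cells. Remodeling-like cells measured 138, 81.9, 152, 239 and 285 at the 5 ages and primary-like cells 109, 47.6, 45.6, 103 and 121, a pooled ratio of 2.32 (2.24 to 2.39) with the same order in 5 of 5 libraries. The cluster with the highest level, 308 (299 to 318), was remodeling-like and led by Adamts5 and Lox, which encode a matrix protease and a crosslinking enzyme. Estrogenic antral-like cells, which carry Cyp19a1 and Hsd17b1, were at 280 (253 to 310) at 2 wk and at 81.1, 105, 124 and 239 at the later ages. Within states, the 5 over 2 wk ratio of Akr1c14 was 1.73 (1.58 to 1.91) in remodeling-like, 0.946 (0.863 to 1.04) in primary-like, 0.745 (0.623 to 0.895) in antral-like and 0.442 (0.375 to 0.519) in estrogenic antral-like cells. The ratio of 1.48 over all granulosa-like cells therefore did not hold in each state. Only 60 antral-like and 91 estrogenic antral-like cells were in the 2 wk library. A state name also need not mean the same follicles at 2 wk and later. Remodeling-like cells numbered 247 of 3094 granulosa-like cells at 2 wk and 979 of 2525 at 5 wk, and the part of this shift in the pooled ratio was not tested.

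Among mesenchymal cells, Akr1c14 was 7.41 (6.48 to 8.49) times higher in Cxcl12 stromal-like cells (markers Cxcl12, Lrat and Tmeff2) than in Cd24a stromal-like cells (Cd24a, Col15a1 and Ramp3). The Cxcl12 stromal-like level was 62.9, 32.5, 38.8, 105 and 130 at the 5 ages. The Cd24a stromal-like level was 13.7, 5.14, 7.01, 12.0 and 15.2. The direction was the same in 5 of 5 libraries. Such groups were made by clustering the same cells, and the share of all genes with such an order is not given here.

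**Figure D4:**
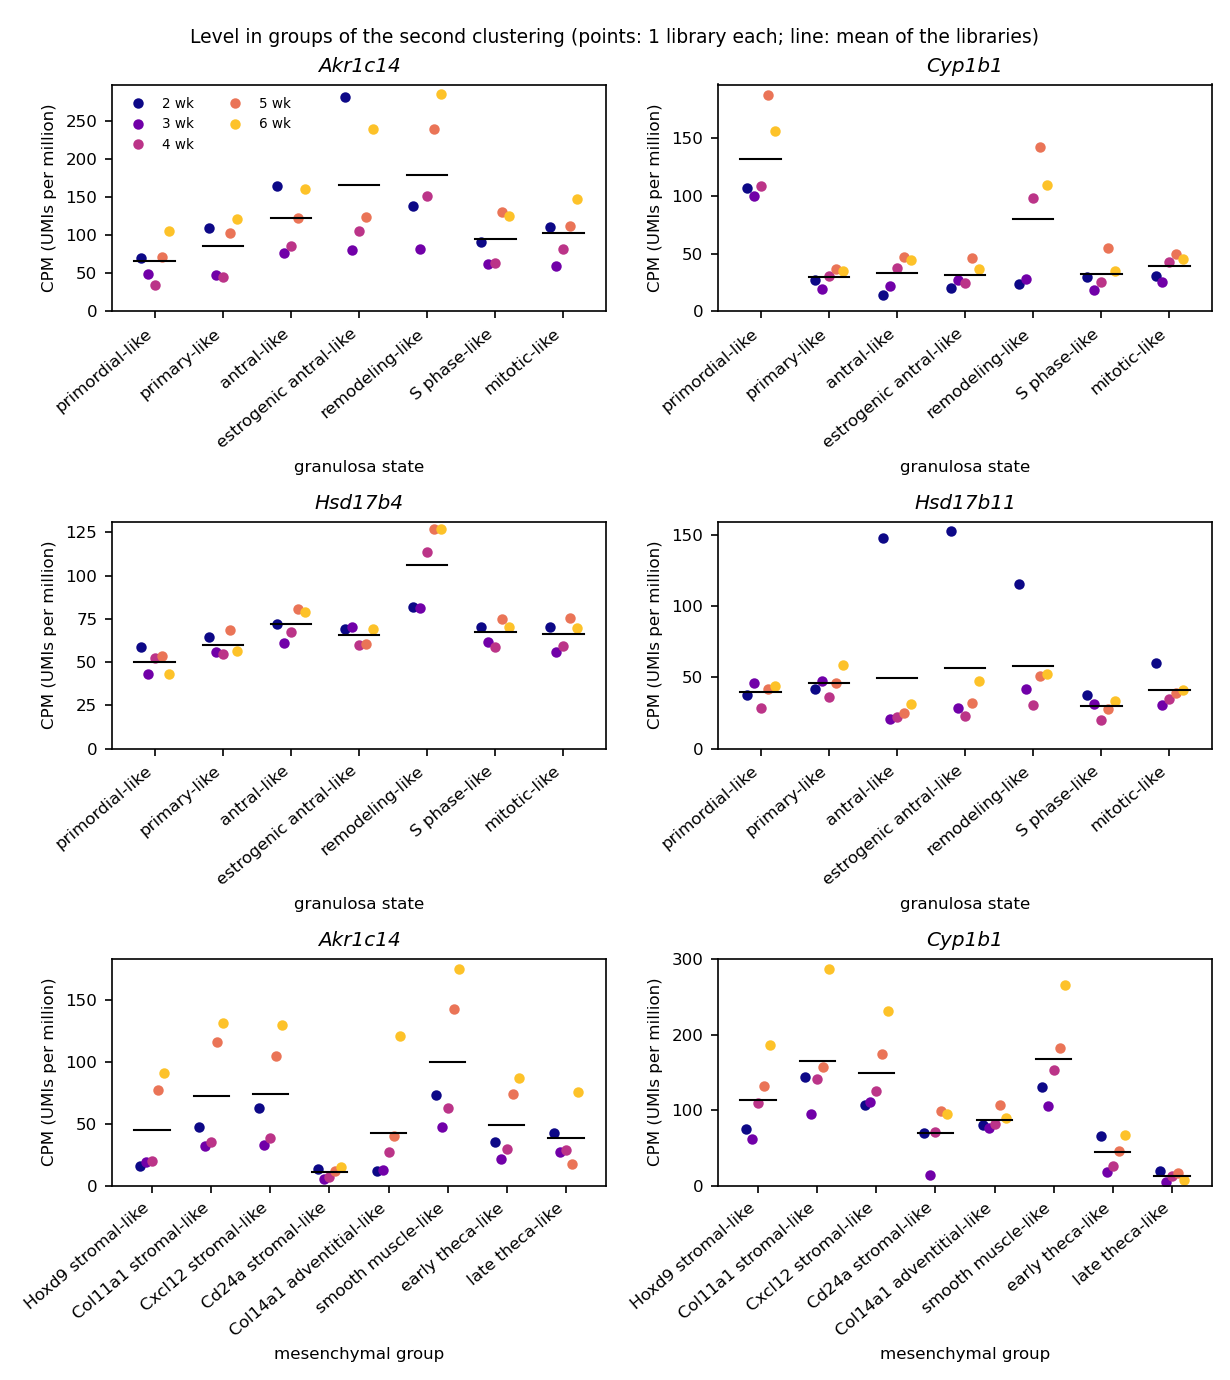
Level in CPM (vertical axes, from 0) in granulosa states (upper 4 panels: Akr1c14, Cyp1b1, Hsd17b4 and Hsd17b11) and mesenchymal groups (lower 2 panels: Akr1c14 and Cyp1b1), 1 point per library coloured by age, with the mean of the libraries as a line. Remodeling-like cells lie above primary-like cells for Akr1c14 and Hsd17b4 in every library, primordial-like cells lead for Cyp1b1, and the 2 wk library stands alone for Hsd17b11 in antral-like, estrogenic antral-like and remodeling-like cells.

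Srd5a1 had its highest level in theca-like cells at every age, although these few cells did not always hold most of its UMIs. Theca-like cells held 6.51%, 31.0%, 16.6%, 74.7% and 13.0% of the Srd5a1 UMIs at the 5 ages, and the more numerous granulosa-like cells 38.8%, 39.96%, 63.5%, 16.5% and 58.3%. The theca-like level was 20.3 (15.0 to 26.9) at 2 wk, 80.5 (71.5 to 90.3) at 3 wk, 52.3 (45.2 to 60.2) at 4 wk, 168 (161 to 175) at 5 wk and 45.5 (38.2 to 53.8) at 6 wk, from 136, 252, 286, 626 and 139 cells. The 2 wk library was lowest and the 5 wk library highest, and neither interval overlapped another age. Pooled, theca-like cells were 7.49 (5.35 to 10.8) times the next class, lymphatic endothelial-like cells at 15.1, and 1.84 to 9.94 times in single libraries. The lymphatic endothelial-like level rested on 34 UMIs, 22 of them in 5 cells of the 5 wk library. The share of theca-like cells with a UMI was 57.7%, against 11.8% of granulosa-like cells, the next class, and 2.42% of hematopoietic-like cells, the lowest named class. The medians of these classes were 17130, 15100 and 6656 UMIs per cell. With each cell thinned to 3000 UMIs the theca-like share was 8.0%, 21.9%, 15.3%, 35.6% and 12.8% at the 5 ages, in the same order as the levels.

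The age course of Srd5a1 in theca-like cells went far past that of the median gene. Its 5 over 2 wk ratio was 8.27 (6.22 to 11.3), its 4 over 2 wk ratio, within 1 Cell Ranger version, 2.57 (1.87 to 3.61), and its 6 over 5 wk ratio 0.271 (0.226 to 0.322). Without integration of the libraries the 5 over 2 wk ratio was 4.67. Genes of androgen synthesis were also highest at 5 wk in the same cells. Cyp11a1, which cleaves the cholesterol side chain, measured 1279, 516, 1240, 5057 and 666. Cyp17a1, which makes androgens, measured 1276, 89.6, 412, 3085 and 394. Unlike Srd5a1, both were lowest at 3 wk and not at 2 wk.

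Within late theca-like cells, a pair of clusters separated the Srd5a1 level. In the cluster led by Cyp11a1, Serpina5 and Fabp3 (877 cells) Srd5a1 measured 36.8, 134, 79.2, 194 and 92.9 at the 5 ages. In the cluster led by Cpa1 and Aldh1a7 (631 cells) it measured 6.93, 23.8, 15.4, 54.0 and 10.5. The former was higher in 5 of 5 libraries and 6.48 (5.68 to 7.40) times higher pooled. Its share of late theca-like cells was 35.3%, 42.3%, 55.2%, 79.9% and 32.9%, so the makeup of the class differed between the ages. This share and the Srd5a1 level of theca-like cells were both highest at 5 wk, but did not move together at every step. From 3 to 4 wk the share rose while the level fell from 80.5 to 52.3. The share was lowest at 6 wk and the level at 2 wk. Within the 2 clusters the 5 over 2 wk ratio of Srd5a1 was 5.29 (3.87 to 7.42) and 7.80 (4.32 to 15.5), so the difference between the ages was present in each. Theca-like cells with at least 1 UMI each of Cyp11a1, Hsd3b1 and Cyp17a1 had Srd5a1 levels of 35.6, 141, 73.5, 173 and 99.5 at the 5 ages. The other theca-like cells had 6.46, 57.5, 32.4, 91.1 and 13.3, lower in 5 of 5 libraries. In granulosa-like cells Srd5a1 measured 5.12, 7.81, 10.0, 11.02 and 7.93. The 5 over 2 wk ratio was 2.15 (1.86 to 2.49), or 1.97 with the stricter filter on cells. The 2 and 4 wk levels over all granulosa-like cells, within 1 Cell Ranger version, were just under 2-fold apart. Within states the 4 over 2 wk ratio was 2.37 (1.67 to 3.33) in primary-like and 2.19 (1.71 to 2.82) in S phase-like cells. It was 2.11 (1.34 to 3.48) in mitotic-like, 1.81 (0.811 to 4.42) in estrogenic antral-like and 1.61 (1.10 to 2.40) in unnamed granulosa cells. Remodeling-like cells gave 2.19 and antral-like cells 3.23, from 8 and 4 UMIs at 2 wk.

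Hsd11b1 and Sult1e1 were rare, and a single small group of mesenchymal cells held a large part of both. Col14a1 adventitial-like cells (markers Col14a1, Pi16 and Dpp4, which mark fibroblasts of the outer vessel wall and other connective tissue) numbered 754, or 1.57% of all cells. They held 142 of 307 Hsd11b1 UMIs (46.3%; 40.6 to 52.0) and 50 of 60 Sult1e1 UMIs (83.3%; 71.5 to 91.7). The Sult1e1 UMIs came from only 19 cells, 11 of them in this group, so its interval is too narrow. Hsd11b1 in these cells measured 16.3, 20.1, 6.13, 26.7 and 44.7 CPM at the 5 ages, from 44, 30, 7, 41 and 20 UMIs, and was 50.6 (38.4 to 67.2) times the level in the other mesenchymal cells. The 4 wk value was the lowest of the 5. Of the 754 cells 91 (12.1%) had an Hsd11b1 UMI, against 3 of 18040 granulosa-like cells (0.0166%).

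Outside the mesenchyme, Hsd11b1 was found in hematopoietic-like cells at 12.0 (8.90 to 15.7) from 51 UMIs and in lymphatic endothelial-like cells at 7.56 (4.41 to 12.1) from 17 UMIs. These classes could not be ordered, since their ratio was 1.58 (0.898 to 2.92). The hematopoietic-like values were 16.4, 5.05, 12.2, 9.49 and 14.7 at the 5 ages, from 2 to 17 UMIs each, with overlapping intervals. Granulosa-like cells held 4 and theca-like cells 1 UMI of Hsd11b1, and blood endothelial-like and surface epithelial-like cells none.

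Sult1e1 was found in 19 cells of all 48163, 11 of which were Col14a1 adventitial-like, and 1 cell of the 2 wk library held 17 of its 60 UMIs. In Col14a1 adventitial-like cells the level was 9.60 (6.27 to 14.1), 4.69 (1.89 to 9.67), 0.876 (0.0222 to 4.88), 10.4 (5.95 to 16.9) and 0 at the 5 ages, and the 42 cells at 6 wk allow a level of up to 6.70 for a count of 0. With so few cells an order of the ages was not detectable. Granulosa-like cells, the class of the estrogen-producing cells, held 8 UMIs of Sult1e1 and theca-like cells 1. Of the Col14a1 adventitial-like cells 5 held both Hsd11b1 and Sult1e1 UMIs.

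**Figure D5:**
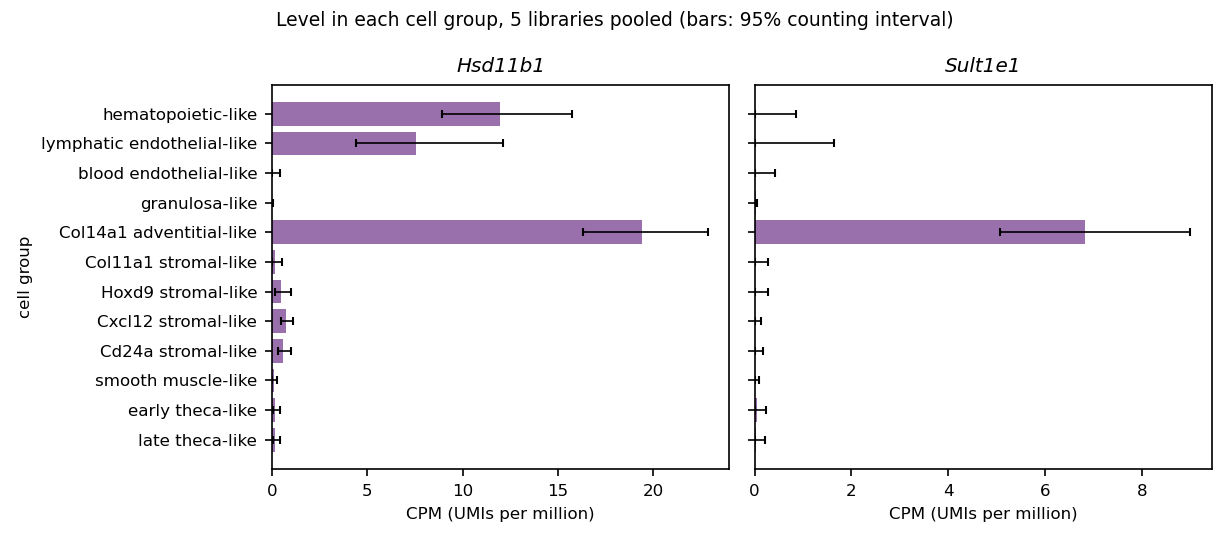
Level of Hsd11b1 (left) and Sult1e1 (right) in CPM (horizontal axes, from 0) in 8 mesenchymal groups and 4 other classes (vertical axis), summed over the 5 libraries, with 95% counting intervals. Col14a1 adventitial-like cells lead for both genes at 19.4 and 6.83, and hematopoietic-like and lymphatic endothelial-like cells show Hsd11b1 alone.

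Hsd17b4 was spread evenly over the ovary. Its pooled level lay between 43.9 in blood endothelial-like and 76.8 in granulosa-like cells, and the 3 highest classes (granulosa-like, lymphatic endothelial-like and smooth muscle-like) were not separated by their intervals or by the order within libraries. In granulosa-like cells it measured 67.8, 60.9, 78.1, 90.6 and 83.3 at the 5 ages (76.1 ± 11.9, SD over 5 libraries), in stromal-like cells the mean was 54.4 ± 10.0, and in theca-like cells 43.8 ± 8.93. The 5 over 2 wk ratio was 1.34 (1.28 to 1.40) in granulosa-like cells but 0.800 (0.747 to 0.855) in stromal-like and 0.777 (0.697 to 0.865) in smooth muscle-like cells, all within 2-fold. Remodeling-like cells measured 81.8, 81.1, 114, 127 and 127 and primary-like cells 64.4, 55.5, 54.4, 68.4 and 56.3. The pooled ratio was 1.94 (1.87 to 2.02) with the same order in 5 of 5 libraries. As for the mesenchymal groups, the share of all genes with such an order is not given. The cluster led by Adamts5 and Lox was again the highest granulosa cluster, at 156 (149 to 163).

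Hsd17b11 was also present in every class, from 37.3 in blood endothelial-like to 70.6 in surface epithelial-like cells pooled, and to 121 (102 to 143) in the 92 rete ovarii-like cells. Surface epithelial-like and smooth muscle-like cells could not be ordered, with a ratio of 1.002 (0.874 to 1.14). In granulosa-like cells the level was 52.3 at 2 wk, 38.1 at 3 wk, 28.3 at 4 wk, 39.6 at 5 wk and 45.9 at 6 wk. The high value at 2 wk sat in some states only. Antral-like cells measured 147 (125 to 172) at 2 wk and 21.0, 22.2, 25.2 and 31.4 at the later ages, although only 60 antral-like cells were in the 2 wk library. Estrogenic antral-like cells measured 153 (132 to 175) at 2 wk and 28.6, 22.9, 32.1 and 47.0 later, and remodeling-like cells 115 (104 to 127) and then 41.5, 30.5, 51.0 and 52.5. In each of these 3 states the 2 wk library lay above all others. Primary-like cells showed no such step, with 41.6, 47.7, 35.9, 46.2 and 58.8. The 5 over 2 wk ratio was thus 0.171 (0.129 to 0.224) in antral-like, 0.211 (0.157 to 0.279) in estrogenic antral-like, 0.442 (0.392 to 0.50) in remodeling-like and 1.11 (0.964 to 1.28) in primary-like cells. The 4 over 2 wk ratio within 1 Cell Ranger version was 0.150 (0.120 to 0.189) in antral-like cells. As said for Akr1c14, a state name need not mean the same follicles at 2 wk and later. The paper counted no antral follicles before 3 wk.

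Cyp1b1 was highest in smooth muscle-like cells in every library. There it measured 131, 105, 154, 183 and 266 at the 5 ages (168 ± 62.1, SD over 5 libraries), in stromal-like cells 82.3, 48.3, 74.0, 104 and 143 (90.1 ± 35.4) and in granulosa-like cells 35.3, 26.2, 57.6, 82.2 and 61.2 (52.5 ± 22.2). The order of these 3 classes was the same in 5 of 5 libraries, and the smooth muscle-like over stromal-like ratio was 1.95 (1.89 to 2.00). Theca-like cells stood lower, at 16.7 (15.2 to 18.3). The share of smooth muscle-like cells with a Cyp1b1 UMI was 63.6% and that of hematopoietic-like cells 7.86%, at medians of 8890 and 6656 UMIs per cell. The smooth muscle-like cluster led by Ednrb and Foxp2 was at 216 (210 to 222) and the cluster led by Myoc and Cnn1 at 158 (152 to 165). Cxcl12 stromal-like cells were at 107, 110, 126, 174 and 231 and Cd24a stromal-like cells at 69.1, 14.1, 70.4, 99.3 and 94.7, a ratio of 2.22 (2.10 to 2.35) with the same order in 5 of 5 libraries. Late theca-like cells, at 13.7 pooled, were below early theca-like cells, at 47.4, in 5 of 5 libraries.

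In granulosa-like cells Cyp1b1 was highest at the start and at the remodeling-like end of the states. The paper, from these same libraries, already lists Cyp1b1 for its remodeling granulosa clusters, so the remodeling-like level is not an independent result. Primordial-like cells (markers Gatm, Lgr5 and Espn) measured 107, 99.9, 108, 188 and 156 and primary-like cells 27.2, 19.5, 30.3, 37.1 and 35.3. The pooled ratio was 4.26 (3.94 to 4.6) with the same order in 5 of 5 libraries, and the share of all genes with such an order is not given. Remodeling-like cells measured 24.0 and 27.9 at 2 and 3 wk, near the primary-like level, and 97.9, 142 and 109 at 4, 5 and 6 wk. Their 5 over 2 wk ratio was 5.92 (4.76 to 7.46), and the remodeling-like level was above the primary-like level in 4 of 5 libraries, all but 2 wk. Over all granulosa-like cells the 5 over 2 wk ratio was 2.33 (2.21 to 2.46), whereas within primary-like cells it was 1.37 (1.16 to 1.60). Within 1 Cell Ranger version, the level over all granulosa-like cells was 35.3 at 2 wk and 57.6 at 4 wk, under 2-fold apart. The part of the larger number of remodeling-like cells at 5 wk in the pooled ratio was not tested. Here too the remodeling-like name need not mean the same follicles at 2 and 5 wk. The paper dates the start of remodeling to about 3 wk.

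The other genes of the pathway were taken from lists of steroid and redox enzymes and receptors. Between 2 and 5 wk, 10.1% of all genes with enough UMIs were past 2-fold up and 8.82% down in theca-like cells, and 8.68% up and 6.95% down in granulosa-like cells. Of the 11 genes of steroid synthesis, 8 were highest in theca-like cells, led by Cyp11a1 at 3085, Hsd3b1 at 2911 and Fdx1, the electron donor of Cyp11a1, at 2738. These genes were not kept out of the clustering, as the 8 members were, so they may have shaped the theca-like class. The share of all genes that are highest in theca-like cells is not given here. In theca-like cells 6 of 9 synthesis genes with enough UMIs were past 2-fold up and 0 down, with a median ratio of 2.07. The makeup of this class also moved between these ages, as given for Akr1c14. Of 10 other AKR1 and 5-reductase genes, the highest was Akr1cl at 4689 in theca-like cells, then Srd5a3, a reductase of polyprenol, at 29.5 in surface epithelial-like cells and Akr1c13 at 10.3 in blood endothelial-like cells. Only 2 of these 10 had enough UMIs in theca-like cells, and neither was past 2-fold. Hsd11b2, which inactivates the glucocorticoid that Hsd11b1 regenerates, was highest in granulosa-like cells, at 79.3, and its 5 over 2 wk ratio in theca-like cells was 0.302 (0.228 to 0.403). In granulosa-like cells, none of the 3 other hydroxysteroid dehydrogenases with enough UMIs was past 2-fold between these ages. In theca-like cells 1 of 2 was, and it was down. The other leading dehydrogenases were Hsd17b10 at 247 in granulosa-like and Hsd17b2, which oxidises estradiol to estrone, at 203 in surface epithelial-like cells.

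Among conjugating enzymes and other P450s, Cyp2s1 measured 70.6 in surface epithelial-like cells and Cyp7b1, which hydroxylates oxysterols and some steroids, 49.0 in pericyte-like cells. Of 4 such genes with enough UMIs in granulosa-like cells 0 were past 2-fold up and 1 down between 2 and 5 wk. Cyb5a, which donates electrons to several P450s, measured 1174 in granulosa-like, Cyb5r3 270 in lymphatic endothelial-like and Por 135 in theca-like cells. None of the 6 cofactor genes was past 2-fold in granulosa-like cells, and 2 of 6 were up in theca-like cells. The peroxisomal genes that act with Hsd17b4 were led by Scp2 at 172 in hematopoietic-like and Acaa1a at 95.6 in smooth muscle-like cells. Of the aryl hydrocarbon receptor genes, Tiparp was highest in pericyte-like cells at 351 and the receptor gene Ahr in blood endothelial-like cells at 59.6. Arnt and Nqo1 were both highest in lymphatic endothelial-like cells at 46.7. Of the 5 listed genes 0 were past 2-fold up and 1 down in granulosa-like cells. In theca-like cells 2 of the 4 with enough UMIs were up and 0 down. In stromal-like cells 1 of 4 was up and 1 down, and in smooth muscle-like cells 0 of 4 were past 2-fold. Of the steroid receptors, Esr2 was highest in granulosa-like cells at 154 and Nr3c1 in blood endothelial-like cells at 149.

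The genes whose pattern was most like each member were found by Pearson correlation of log2(CPM + 1) over 41 groups of class and library with at least 50 cells each, among 12283 genes. Groups share libraries and differ in depth, so the values are descriptions. Srd5a1 was most like Bpifb4 (0.86), which is itself a marker used to name theca-like cells, Hao2 (0.82) and E330017L17Rik (0.81). Hsd11b1 was most like Mrc1 (0.90), Lyz2 (0.88) and Ccl7 (0.87), which are known from macrophages. The groups followed the classes, so Col14a1 adventitial-like cells, with 142 of 307 Hsd11b1 UMIs, were not a group of their own. Cyp1b1 was most like Kcnk2 (0.85), Vit (0.81) and Csmd1 (0.80), and Akr1c18 like Hamp2 (0.84) and Tmem174 (0.76). Akr1c14 was most like Mboat2 (0.78), Tmtc2 (0.76) and Omd (0.76). Hsd17b4 was most like Smim14 (0.74), Cyb5a (0.69) and Chrdl1 (0.66), and Hsd17b11 like Mob3b (0.69), Tex2 (0.67) and Mif4gd (0.64). For Sult1e1, which was at 0 in most groups, Svep1 (0.66), Dpt (0.65) and Gm266 (0.65) came first.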

How the data were processed

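There were 5 single-cell libraries of mouse ovary, 1 for each wk of age from 2 to 6, and each age was its own group. The authors deposited raw UMI counts per gene and cell barcode, without normalization, made with the Chromium 3′ chemistry and Cell Ranger at default settings on mm10 (GRCm38). The submitters' processing notes name Cell Ranger 3.1.0 and Seurat 4.1.0, whereas the table headers name Cell Ranger 6.0.1 for 5 and 6 wk. The paper's methods name both Cell Ranger versions, without saying which library had which. Reads that map to more than 1 gene are not counted by that software, which can lower the level of close paralogs.

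All deposited cells were kept. Libraries were log-normalized, integrated on 2000 variable genes without the 8 enzymes, and clustered in Seurat 5.3.0 (R 4.3.3) on 30 of 50 principal components with 20 neighbours at a resolution of 1 (seed 1). Of the 8 genes, 5 would have been among the variable genes. Clusters were named by at least 3 markers, each with a UMI in at least 10% of cells and at 1.5 times the median cluster. A cluster stayed unnamed with under 30 cells, at least 50% doublets (30% in the second clustering), over 90% of cells from 1 library, or a median under 33.3% of its library's UMIs with no marker among its top genes. These limits, and a list of cell cycle markers for the second clustering, were set after the clusters were seen. Granulosa-like and mesenchymal cells (theca-like cells with the stromal-like and smooth muscle-like) were clustered again, into 16 and 21 clusters. Several markers of states and groups came from the study's own clusters. Scrublet (scanpy 1.11.5) called 3.09% of cells doublets, which stayed in.

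UMIs were summed per class and library and scaled to 1000000 UMIs of those cells (CPM). Levels carry exact Poisson, shares exact Clopper-Pearson and ratios exact conditional 95% intervals, computed in Python 3.11.15 with numpy 2.4.6, scipy 1.17.1 and pandas 2.3.3, and plotted with matplotlib 3.10.9. A count of 0 allows up to 3 UMIs. No test between ages or classes was run, since an age has a single library and classes come from the same cells. A gene was counted as past 2-fold with at least 30 UMIs over both ages. The ratio and its interval were tested on simulated counts with known folds. Those counts were Poisson, as the interval assumes, so this checks the computation only. It does not cover UMIs that gather in few cells or differences between mice. PCR duplicates were already collapsed by UMI.

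All 8 members are described. From each pathway list up to 3 genes with the highest level in a class of at least 200 cells are named, with further genes beside a member whose substrate or partner they share, picked after their values were seen. The 3 genes most like each member were taken among those with at least 1000 UMIs. The members and lists were chosen with earlier results of these data known. Some genes that these rules pick are not reported here. Hsd17b8 and Sts were not analysed here, nor was a promoter of Hsd17b4 or any protein sequence. Promoters came from RefSeq, and 7 of 8 members matched. Alternatives were other doublet and quality filters (at least 1000 genes and under 10% mitochondrial UMIs), a resolution of 0.6, no integration, members among the variable genes, equal weight of libraries, median-of-ratios scaling, and 2 that were added after seeing the data.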

Additional observations from a re-analysis of the deposited data

Results flagged for a closer look

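The 5 over 2 wk ratio of Akr1c14 lay on opposite sides of 1 in different classes. It was 1.48 (1.43 to 1.53) in granulosa-like, 1.92 (1.79 to 2.06) in stromal-like and 1.99 (1.80 to 2.19) in smooth muscle-like cells. In contrast, theca-like cells gave 0.444 (0.357 to 0.556). The counting intervals did not reach 1 in any of the 4 classes. Within 1 Cell Ranger version, however, the level was lower at 4 wk than at 2 wk in all 4 classes. It went from 109 to 102 in granulosa-like and from 34.4 to 26.3 in stromal-like cells. In smooth muscle-like cells it went from 72.7 to 60.7 and in theca-like cells from 48.3 to 35.3. The classes thus parted between 4 and 5 wk, where software and age cannot be told apart. In theca-like cells split by the UMIs of 3 genes of androgen synthesis the level at 5 wk was also below that at 2 wk in both parts. The difference between the classes was not tested, since each age is 1 library.

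The 5 over 2 wk ratio of Hsd17b4 was 1.34 (1.28 to 1.40) in granulosa-like cells, and 0.800 (0.747 to 0.855) in stromal-like and 0.777 (0.697 to 0.865) in smooth muscle-like cells. This difference was not tested either, and all 3 ratios were within 2-fold.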

How the results depend on the processing

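No paired analysis was possible because the ages share no replicates, each being 1 library. Classes and states of the same libraries were compared by their order within each library, without a test. Of 187 single ratios computed under the alternatives, 182 stayed on the same side of 1. The other 5 concerned Hsd17b11 in stromal-like cells and its leading pair of classes, and Srd5a1 in smooth muscle-like cells, all close to 1. The number of members past 2-fold between 5 and 2 wk in smooth muscle-like cells was 0 as reported, 1 at a resolution of 0.6 or with median-of-ratios size factors, and 2 without integration. In stromal-like cells it was 0, and 1 with size factors. In theca-like cells it was 2, and 1 with the stricter filter on genes per cell and mitochondrial UMIs. The number of members at least 2-fold over the next class in each library was 1, but 0 without doublets and 2 with that filter. The causes were not tested. The same highest class as reported was found for 8 of 8 members under each other clustering or filter, and for 7 without integration, which left 1078 theca-like cells in place of 1439. Without integration the 5 over 2 wk ratio of Akr1c18 in granulosa-like cells was 0.0512 and that of Cyp1b1 in theca-like cells 2.04. Sult1e1 gave no ratio between its leading classes with the stricter filter, for want of UMIs. Counts of UMIs limit Sult1e1 and Hsd11b1, and small cell numbers limit theca-like cells at 2 and 6 wk.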

Other observations

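The 225 granulosa-like cells of the 2 wk library with an Akr1c18 UMI were compared, as a description, with the 2869 without one. The genes with the highest ratio of level were the histone gene Hist1h2ae at 1.94 (1.64 to 2.28), the mitotic kinase gene Aurka at 1.85 (1.55 to 2.20), the spindle protein gene Nusap1 at 1.77 (1.58 to 1.99) and the collagen gene Col3a1 at 1.72 (1.56 to 1.89). Akr1c14, the chromosomal neighbour of Akr1c18, stood at 1.20 (1.10 to 1.31) and Srd5a1 at 1.005 (0.638 to 1.52). The share of all genes at or above 1.20 in this split is not given, so the Akr1c14 ratio is no measure of shared expression. The cells with a UMI were deeper, with a median of 20137 against 16700 UMIs, and more of them were called doublets, 3.56% against 1.29%. The part of depth in these ratios was not tested.

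The 2 wk antral-like level of Akr1c18, 74.7 CPM, rested on few cells, of which 1 held 67 UMIs.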
